A study of Arabidopsis thaliana with 4 samples.

Results

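The comparison set RNA of ku80 mutant plants against RNA of wild type plants of Arabidopsis thaliana, both without bleomycin. It used 2 of the 4 arrays of the series, chosen by their titles: ku80 without the drug and wild type without the drug. The other 2 arrays, ku80 with bleomycin and wild type with bleomycin (1 mg per litre for 3 days), were used for comparison. The ku80 line carries a T-DNA insertion in At1g48050 in the Ws-2 background, and the wild type is Ws-2. Each array held labelled RNA of whole plants at growth stage 1.06, grown on MS medium at 23 °C with 16 hours of light, and the design text gives 20 pooled plants. The labels name 1 mutant line and do not say whether the wild type plants were its siblings.

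KU80 forms a ring with KU70 that binds the ends of broken DNA and starts their repair by non-homologous end joining. Ku also protects telomere ends in plants. Bleomycin breaks DNA strands, so the pair without the drug shows the mutant in the absence of added damage. With 1 pooled array a side there is no replicate, so every difference below is a ratio of 2 arrays without an error or a test.

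The arrays (ATH1, short oligonucleotides grouped into probe sets) gave 1 intensity for each probe set. Intensities were brought to a common scale, values under 28 were set to 28 (the floor), and ratios are log2 of ku80 over wild type, so that 1 is a 2-fold difference. Of 22746 probe sets, 14486 were above the floor on at least 1 of the 2 arrays and are called measured. Of these, 13015 were above it on both, and the other 1471 have ratios that are lower bounds, given as "at least". Only 7807 of the measured probe sets (53.9%) could be paired with 1 gene, so roughly that part of the measured transcripts can be named. KU80 itself was paired with none of the probe sets, and the mutation was therefore not checked by its transcript.

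Most of the transcriptome lay close between the arrays, and the middle 95% of log2 ratios ran between -0.96 and 1.04 around a median of -0.02. Among the measured probe sets, 388 (2.68%) were higher in ku80 by 2-fold or more and 320 (2.21%) were lower by as much. The larger differences leaned upward: past 3-fold there were 173 higher and 85 lower. When the probe sets were cut into 5 equal classes by mean level, the brightest class had 2.80% higher and 1.21% lower, with a median log2 ratio of 0.07. The class next to the dimmest had 3.56% higher and 4.07% lower, with a median of -0.05.

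The arrays without bleomycin also differed in their controls. Of 14 bacterial and phage spike-in probe sets that both arrays had above the floor, 13 were brighter in ku80, by a median of 1.87-fold, and GAPDH control probe sets were brighter too, at 2246 in ku80 and 1311 in wild type for the 3' set. The 3' to 5' ratio, a sign of RNA integrity, ran over all 4 arrays between 1.24 and 1.38 for actin, 1.09 and 1.19 for GAPDH, and 1.17 and 1.53 for ubiquitin. In scanner background, by contrast, the ku80 array was the one apart. The background averaged 95.8 in ku80, against 107 in wild type, 105 in ku80 with bleomycin and 107 in wild type with bleomycin. If the ku80 array is divided by the median spike-in ratio, 124 probe sets are 2-fold higher and 4614 2-fold lower, so that 2.62% of the differences point upward instead of 54.8%, and the median of all probe sets is -0.83. All directions below are therefore relative to the bulk of probe sets on each array. The part of these array differences in the results was not tested.

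**Figure D1:**
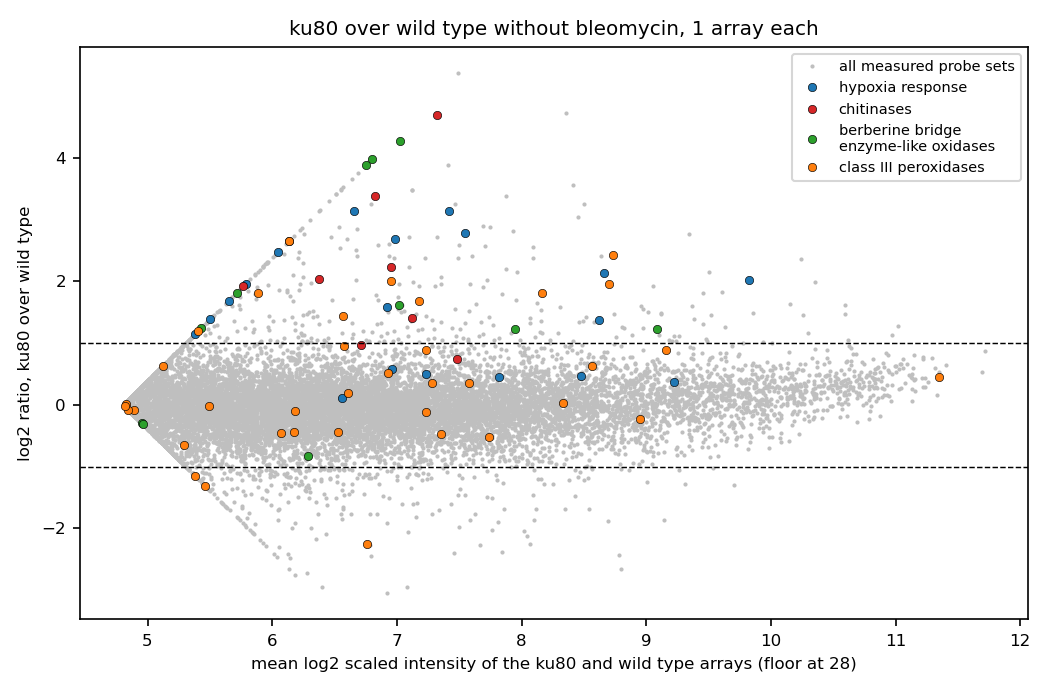
Each point is 1 measured probe set: the x axis gives the mean log2 scaled intensity of the ku80 and wild type arrays, the y axis the log2 ratio of ku80 over wild type, and dashed lines mark 2-fold. Coloured points are members of 4 gene groups, and the diagonal edges on the left are ratios with 1 array at the floor of 28. Of the 8 measured chitinase genes 6 lie above the upper line, as do 14 of the 20 measured hypoxia response genes.

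Among the named genes above the floor in both ku80 and wild type, the 3 highest ratios were those of AT2G43620, AT1G30700 and AT4G33720. AT2G43620, a chitinase gene, was at 811 in ku80 against 31.4 in wild type, which is 25.8-fold. AT1G30700, of the berberine bridge enzyme-like oxidases, was at 573 in ku80 against 29.6 in wild type (19.4-fold). AT4G33720, a small secreted protein of the CAP family that holds PR-1, was at 651 in ku80 against 44.4 in wild type (14.7-fold). The wild type array was the lowest of all 4 arrays at these 3 genes. With the drug, they stood at 102, 312 and 224 in ku80 and at 244, 87.1 and 190 in wild type.

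The same ranking held genes of other functions. ASPGB1, an asparaginase that frees ammonia from asparagine, was at 544 in ku80 against 57.3 in wild type. GH3.3, an enzyme that joins auxin to amino acids, was at 584 in ku80 against 79.3 in wild type. GAT1_2.1, a glutamine amidotransferase-like gene, was at 298 in ku80 against 63.1 in wild type. AT3G13610, which encodes the feruloyl-CoA hydroxylase of scopoletin synthesis, stood at 526 in ku80 and 118 in wild type, and the subtilase gene SBT3.5 at 225 in ku80 and 38.5 in wild type. AT2G38870, a proteinase inhibitor gene of the potato inhibitor I family, reached 1002 in ku80 against 122 in wild type. These 6 genes differed by 4.44-fold to 9.50-fold.

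Some genes were above the floor in ku80 and under it in wild type when no drug was given. AT1G26390 and AT1G26380, neighbouring berberine bridge enzyme-like genes, were at 442 and 413 in ku80 and under the floor in wild type, so they were at least 15.8-fold and 14.7-fold higher. AT1G47400, which encodes IRON MAN 1, a peptide of the iron deficiency response, was at 298 in ku80 (at least 10.7-fold higher). CCOAMT, a caffeoyl-CoA methyltransferase gene, was at 276 in ku80 (at least 9.85-fold higher). AT1G26250, a proline-rich extensin-like gene, was at 316 in ku80 (at least 11.3-fold higher). A pair of bright probe sets with no gene name here were also far apart: 263096_at stood at 1681 in ku80 and 63.7 in wild type, and 245038_at at 1170 in ku80 and 99.5 in wild type.

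**Figure D2:**
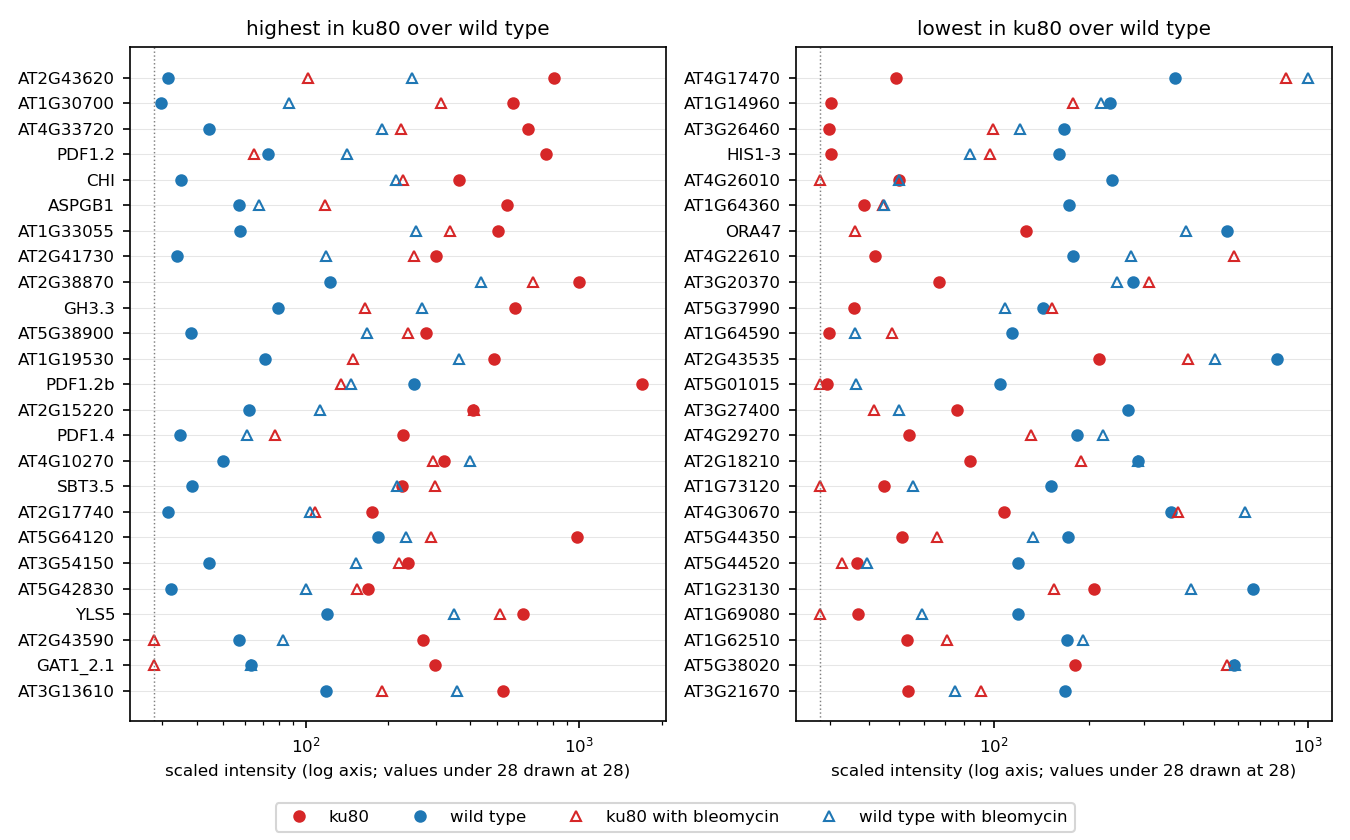
Scaled intensity on a log axis of the 25 named genes with the highest (left) and the 25 with the lowest (right) ratios of ku80 over wild type where neither array was at the floor. Filled circles are the arrays without bleomycin and open triangles those with it, red for ku80 and blue for wild type, with 1 array each. On the left, AT2G43620 spans 811 in ku80 and 31.4 in wild type, and on the right AT4G17470 spans 48.7 in ku80 and 376 in wild type.

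Chitinases cut chitin, a polymer of fungal cell walls, and many are secreted. The family has 24 listed loci, of which 15 were named on the array and 8 measured. This list was chosen after the values were seen, so its counts are a description. Of these 8, 6 were at least 2-fold higher in ku80, none was 2-fold lower, and the median ratio was 1.98 (1.07, with 5 of 8 2-fold higher, in the spike-in scaling, and 0.64 over all 15 named members with no floor), while among all named probe sets 2.56% were 2-fold higher and the median was -0.01. CHI (AT2G43570) was at 365 in ku80 against 35.1 in wild type. AT2G43590 stood at 269 in ku80 and 57.1 in wild type, and AT4G01700 at 168 in ku80 and 41.0 in wild type. AT1G02360 was at 106 in ku80 and under the floor in wild type, and AT3G47540 at 226 in ku80 and 85.3 in wild type. The remaining members, AT2G43610 and the chitinase gene ChiC, were under 2-fold, with log2 ratios of 0.98 and 0.74. AT2G43570, AT2G43590, AT2G43610 and AT2G43620 lie in 1 cluster on chromosome 2, so the members are not independent of each other.

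Berberine bridge enzyme-like proteins are oxidases of the cell wall and of alkaloid and indole metabolism, and AT1G26380 (FOX1) acts in the synthesis of a cyanogenic defence compound. Of 27 listed loci, 22 were named and 11 measured. This list too was chosen after the values were seen, so its counts are a description. Of these, 8 were at least 2-fold higher in ku80, against 2.56% of all named probe sets, and none was 2-fold lower. The median was 1.25 over the 11 measured, 0.35 with the spike-in scaling and 0.04 over all 22 named members when no floor was set. The measured levels above the floor on both arrays were 227 in ku80 and 74.0 in wild type for AT5G44380, 378 in ku80 and 161 in wild type for AT4G20860, and 830 in ku80 and 356 in wild type for AT4G20830. AT1G26410 and AT1G26420, next to the 2 genes named above, were above the floor in ku80 only, at 66.6 and 98.4. The 3 members lower in ku80 were AT5G44400, at 58.6 in ku80 and 104 in wild type, and AT1G30760 and AT2G34810, which were near the floor. Since 4 of the 8 higher members passed the floor only in ku80, their place among the measured genes depends on ku80 being the higher array. With the spike-in scaling 3 were 2-fold higher and 1 was 2-fold lower. Of the CAP family, AT4G33720 was the 1 member of 8 measured that passed 2-fold, against 2.56% of all named probe sets upward. The other 7 were above the floor on 1 array only, so their ratios are bounds. The CAP list was likewise chosen after the values were seen.

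Plant defensins are small secreted antimicrobial peptides, and PDF1.2 is the usual marker of combined jasmonate and ethylene signalling. PDF1.2 was at 756 in ku80 against 72.7 in wild type, PDF1.2b at 1692 in ku80 and 248 in wild type, and PDF1.4 at 228 in ku80 and 34.7 in wild type. The probe set of PDF1.2b can bind related transcripts, and it is a near copy of PDF1.2, so their separate levels are uncertain. These were the 3 of 7 measured members that were 2-fold higher, against 2.56% of all named probe sets. The other 4 were within 2-fold: LCR69 was at 1674 in ku80 against 1281 in wild type, and LCR68 at 696 in ku80 and 1022 in wild type. PDF2.5 and PDF2.1 had log2 ratios of 0.13 and -0.22. The median of the 7 was 0.39, against 0.15 with quantile normalization and -0.52 with the spike-in scaling, and under both the 3 higher genes were still past 2-fold.

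Of 36 listed jasmonate and ethylene genes, 6 were measured, with 4 past 2-fold upward and 1 past 2-fold downward in ku80, against 2.56% and 1.9% of all named probe sets. Besides both PDF1.2 genes and AT2G38870, JRG21, an oxygenase that inactivates jasmonate, was at 135 in ku80 and under the floor in wild type. ORA47, a transcription factor that switches on jasmonate synthesis genes, went the other way, at 127 in ku80 and 550 in wild type. THI2.1, a thionin gene induced by jasmonate, was at 41.3 in ku80 against 67.2 in wild type. ORA47 and the PDF1.2 genes, all of the jasmonate list, stood on opposite sides. The salicylic acid list had 3 measured genes of 31. UGT76B1, a glucosyltransferase that restrains salicylic acid signalling, was at 147 in ku80 and under the floor in wild type, and SAG101 and WRKY53 had log2 ratios of 0.50 each.

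Class III peroxidases are secreted enzymes that make or use hydrogen peroxide in the cell wall. Of 73 listed loci 37 were measured. In ku80, 9 of them were past 2-fold upward and 3 past 2-fold downward, against 2.56% and 1.9% of all named probe sets. Among the 30 above the floor on both arrays, 7 were 2-fold higher and 1 was 2-fold lower. The list was chosen after the values were seen, so these counts are a description. The median of 0.20 was 0.02 with quantile normalization and -0.41 with the spike-in scaling. The higher ones included AT5G64120 (PER71), at 984 in ku80 and 183 in wild type, AT4G08770 (Prx37), at 818 in ku80 and 211 in wild type, and its neighbour AT4G08780, at 248 in ku80 and 61.8 in wild type. AT5G64100 was at 539 in ku80 against 153 in wild type, and AT5G39580 at 260 in ku80 and 80.8 in wild type. AT1G14550, at 177 in ku80, was under the floor in wild type. The lower ones were AT4G26010 (PER44), at 49.7 in ku80 and 238 in wild type, AT3G49960 (PER35), at 62.0 in wild type, and AT1G30870 (PER7), at 69.6 in wild type. PER35 and PER7 were under the floor in ku80. PER44 is a gene of root hair cells. UPB1, a transcription factor known in roots for repressing peroxidase genes, was under the floor in ku80 and at 84.1 in wild type (at least 3.00-fold lower).

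Hypoxia response genes are switched on when oxygen is short, by transcription factors that oxygen otherwise makes unstable, and they serve fermentation and the saving of energy. Of 46 listed genes, 21 were named and 20 measured. In ku80, 14 were at least 2-fold higher, against 2.56% of all named probe sets, none was lower, and the median ratio was 1.64. AT4G27450 was at 1821 in ku80 against 451 in wild type. AT3G03270, a universal stress protein gene, was at 844 in ku80 against 193 in wild type, AT5G27760 at 633 in ku80 and 245 in wild type, and AT4G24110 at 210 in ku80 and 69.8 in wild type. The strongest were AT1G33055, at 507 in ku80 and 57.4 in wild type, and AT2G41730, at 299 in ku80 and 34.0 in wild type, whose probe set can bind related transcripts. AT1G19530 stood at 490 in ku80 and 71.1 in wild type, and AT4G10270 at 322 in ku80 and 50.0 in wild type.

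Another 6 hypoxia genes, among them AT4G33560, AT5G10040 and AT3G10040 (HRA1, a trihelix factor that restrains the response), were above the floor in ku80 only, at 62.2 to 177. The gene for the fermentation enzyme pyruvate decarboxylase, PDC2, was at 419 in ku80 against 302 in wild type, and the calcium sensor gene CML38 at 677 in ku80 and 525 in wild type, both within 2-fold. Of the 14 members that neither array had at the floor, 8 were at least 2-fold higher. The differences of AT1G33055, AT2G41730, AT1G19530 and AT4G10270 were known when the list was drawn up. Without these 4 genes, 10 of 16 were at least 2-fold higher, with a median of 1.38, but 6 of those 10 passed the floor in ku80 alone. Of the 10 among these 16 that neither array had at the floor, 4 were 2-fold higher, with a median of 0.54, and with a floor of 56 the 16 gave 6 and a median of 0.63. Divided by the spike-in ratio, 5 of the 16 were 2-fold higher, with a median of 0.48. Over the whole list and with that scaling, 9 of the 20 stayed 2-fold higher and the median was 0.73.

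**Figure D3:**
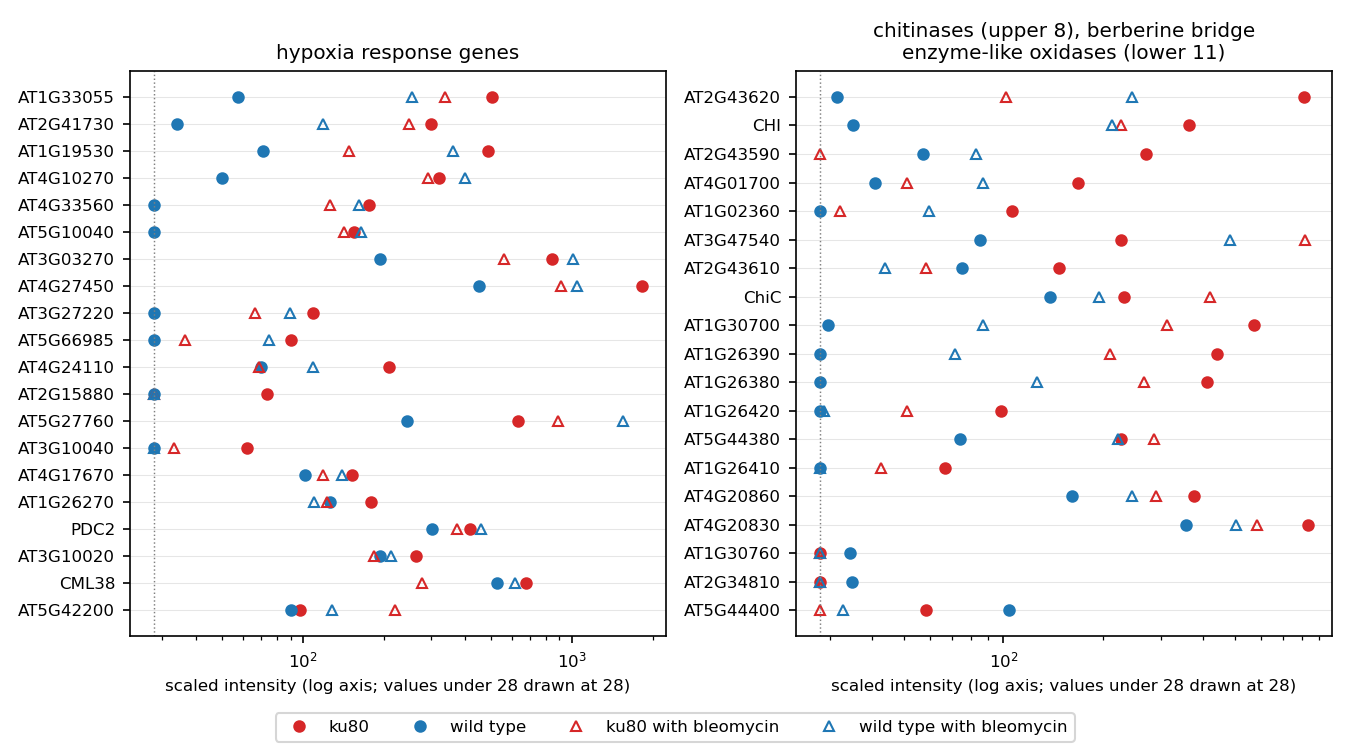
Scaled intensity on a log axis of the 20 measured hypoxia response genes (left) and of 8 chitinase and 11 berberine bridge enzyme-like genes (right), in the order of their ratio of ku80 over wild type. Filled circles are arrays without bleomycin, open triangles arrays with it, red for ku80 and blue for wild type, and values under 28 are drawn at 28. The blue circle of wild type without the drug lies left of the red circle of ku80 in all 20 rows of the left panel.

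Stress genes of other kinds were fewer. Of 22 oxidative stress and detoxification genes 4 were measured. The 3 with bounds past 2-fold upward in ku80 (2.56% of all named probe sets were) were measured through ku80 alone. NDB2, the 1 member above the floor on both arrays, was within 2-fold. GSTU25, a glutathione transferase, was at 160 in ku80, the mitochondrial small heat shock gene AT5G51440 at 87.1 and UPOX (AT2G21640) at 70.5, and all 3 were under the floor in wild type, UPOX only just. GSTU26, the next gene to GSTU25 on the chromosome, was lower: it was under the floor in ku80 and at 118 in wild type. The remaining 7 measured tau glutathione transferases were within 2-fold. The senescence genes SAG29 and WRKY6 stood at 135 and 149 in ku80 and at 49.7 and 67.7 in wild type. The 3 measured heat shock genes were under the floor in wild type and had bounds below 2-fold.

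For the repair pathway that the mutation concerns, the arrays say little. Of 25 DNA damage response genes 2 were named and none was measured on these arrays. LIG4, the ligase that completes end joining, was at 48.2 in ku80 against 36.7 in wild type, a log2 ratio of 0.40. The mitotic kinase genes AUR1 and AUR2 had log2 ratios of -0.17 and 0.27, and MCM7 (PRL), a subunit of the replicative helicase, was at 58.6 in ku80 against 61.3 in wild type. All 3 measured core histone genes were within 2-fold. Ratios this small in a few genes, from 1 array a side, do not show that the processes were alike.

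The lowest ratios belonged to other functions. AT4G17470, of the palmitoyl-protein thioesterase family, was at 48.7 in ku80 against 376 in wild type (7.72-fold lower). HIS1-3, a linker histone gene induced by drought and abscisic acid, was at 30.3 in ku80 against 161 in wild type (5.32-fold lower). The other 3 measured genes of its stress list, COR47, COR15B and LTI30, had log2 ratios of -0.20 to -0.53. AT4G22610, a lipid transfer protein-like gene, was at 41.8 in ku80 against 178 in wild type. AT3G27400, of the pectate lyase family, was at 76.0 in ku80 against 267 in wild type, and AT3G21670 (NPF6.4), a nitrate transporter gene, at 53.4 in ku80 and 168 in wild type. GH3.17, which joins glutamate to auxin, stood at 46.9 in ku80 and 113 in wild type, opposite to GH3.3. Of the unnamed probe sets, 245736_at was at 178 in ku80 against 1120 in wild type.

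Major latex protein-like genes encode small proteins with a binding pocket of the Bet v 1 fold. Of 27 listed loci 17 were named and 10 measured, and 4 were at least 2-fold lower in ku80 against 1.9% of all named probe sets. The list was chosen after the values were seen, so the count is a description. AT1G14960 was at 30.4 in ku80 against 234 in wild type, AT3G26460 at 30.0 in ku80 and 167 in wild type, and AT1G23130 at 207 in ku80 and 668 in wild type. AT4G14060 was under the floor in ku80 and at 105 in wild type. The bright members AT4G23670 and AT4G23680 differed less, at 860 and 673 in ku80 and at 1118 and 1053 in wild type. AT1G23120, at 159 in ku80 and 118 in wild type, was the 1 member with a ratio above 0, and the median was -0.58.

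Alpha-expansins and glycoside hydrolase 9 genes leaned lower in ku80 with no member past 2-fold, and EXPA18 and GH9C1 were measured through wild type alone. All 7 measured alpha-expansins, proteins that loosen walls, had ratios below 0, between -0.89 and -0.07, where 51.9% of all measured probe sets lay below 0. EXPA8 was at 178 in ku80 against 298 in wild type, and EXPA4 at 123 in ku80 and 205 in wild type. Of 7 glycoside hydrolase 9 genes, which include cellulases, 6 were below 0, with GH9B13 at 103 in ku80 and 191 in wild type and GH9B7 at 234 in ku80 and 316 in wild type. The 13 measured trichome birefringence-like genes (median -0.03), the 28 UDP-glycosyltransferases (median 0.00) and the 6 xyloglucan transglucosylases (median -0.09) lay around 0. These statements were relative to the bulk of probe sets: with the spike-in scaling the medians of alpha-expansins and glycoside hydrolase 9 genes were -1.17 and -1.44.

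**Figure D4:**
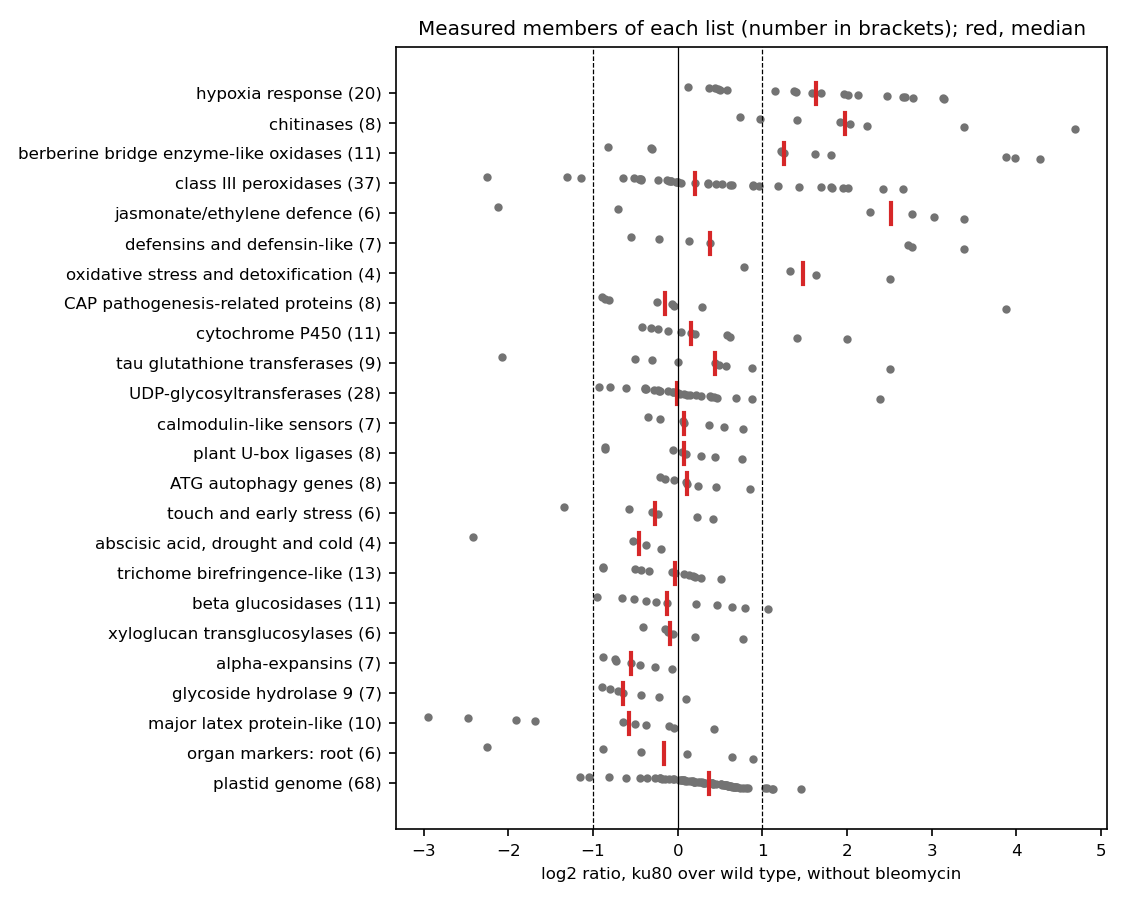
Each grey point is the log2 ratio of ku80 over wild type of 1 measured member of a gene list, red bars are list medians, dashed lines mark 2-fold and the number of members is in brackets. Hypoxia response (median 1.64), chitinases (1.98) and berberine bridge enzyme-like oxidases (1.25) lie mostly to the right, and major latex protein-like genes (-0.58), glycoside hydrolase 9 genes (-0.65) and alpha-expansins (-0.55) to the left.

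Because whole plants were taken, the share of organs can differ between pools, and in such samples fewer cells of a type and less RNA per cell cannot be told apart. Of 16 root markers 6 were measured, and their summed intensity was 2336 in ku80 and 2320 in wild type. PYK10, at 1935 in ku80 against 1791 in wild type, made up most of each sum, so the sums say little of the others. The median log2 ratio of the 6 was -0.16, with 3 above 0 and 3 below. The root hair markers PER44 and EXPA18 were lower in ku80, EXPA18 being under the floor there and at 51.8 in wild type, while the root peroxidase gene AT4G11290 was at 204 in ku80 against 110 in wild type. Of the added list of 22 root hair genes, EXPA18 was the 1 measured member. Of the leaf markers RCA was named, at 2666 in ku80 and 1893 in wild type, and the 3 measured LHCB4 genes had log2 ratios of -0.22 to -0.09. No flower or seed marker was named on the array. The part of organ shares in the differences above was not tested.

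Of 68 plastid genome genes measured, 54 had ratios above 0 (48.1% of all measured probe sets did) with a median of 0.37, and psbD, a photosystem II core gene, was at 2022 in ku80 against 738 in wild type. Of the 68, 5 were 2-fold higher and 2, psbK and psbN, were 2-fold lower, against 2.56% and 1.9% of all named probe sets. With quantile normalization the plastid median was 0.13, with 2 genes 2-fold higher and 2 lower. The median turned to -0.50 when ku80 was divided by the spike-in ratio. Of 6 touch and early stress genes 5 had log2 ratios between -0.57 and 0.41, among them STZ (ZAT10), at 1563 in ku80 and 1338 in wild type. The exception was AT1G19210, at 86.8 in ku80 and 220 in wild type. With bleomycin all 6 were at least 2-fold lower in ku80, against 2.51% of all measured probe sets, with log2 ratios of -1.47 to -2.70. The 8 autophagy ATG genes, 8 plant U-box ligase genes and 7 calmodulin-like genes had no member past 2-fold. Neither did the 4 measured reference genes, of which GAPC2 was the farthest from 0, at 2648 in ku80 and 1681 in wild type.

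Genes lying next to each other in the annotation sometimes differed together. Among 2392 pairs of adjacent measured genes, both passed 2-fold either way in 15, and 13 of those pairs pointed the same way (8 higher and 5 lower in ku80), while in 205 pairs 1 gene of the 2 passed, and 4.89% of all measured probe sets did. Besides the pairs named above, the extensin-like genes AT1G26240 and AT1G26250 were at least 2.30 and 3.50 higher on the log2 scale. AT1G52050, AT1G52060 and AT1G52070, of the jacalin lectin family, were lower, at -1.11, -1.64 and at least -1.94. Adjacent genes of 1 family can share probe binding, so such pairs are not separate observations. By chromosome, the share of named probe sets at least 2-fold higher ran between 2.12% (chromosome 5) and 2.92% (chromosome 2). Around KU80 itself, none of the 11 measured genes within 30 genes on either side passed 2-fold, with log2 ratios of -0.59 to 0.54.

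The other 2 arrays gave a second pair of ku80 and wild type pools that shared no array with the first. With bleomycin, 1.98% of measured probe sets were 2-fold higher or more in ku80 and 2.51% were lower by that much. Of the 388 higher without the drug, 380 were measured with it, and 34 of these (8.95%) were again 2-fold higher while 27 (7.11%) were 2-fold lower. Of the 320 lower ones, 263 were measured with the drug, with 36 (13.7%) again lower and 8 (3.04%) higher. The median ratio of the higher set was 1.49 without the drug and 0.12 with it, and that of the lower set -1.22 and -0.21. Most of the differences without the drug were thus under 2-fold in the treated pair. Over all 4 arrays, the wild type array without bleomycin was the lowest in 323 of the 388 higher probe sets, and the ku80 array without it was the highest in 229. In the 320 lower probe sets the ku80 array without the drug was the lowest of the 4 in 114, and the wild type array without it was the highest in 271. These probe sets were chosen by the ratio of the same 2 arrays, so the counts are a description. Among the 20 hypoxia genes ku80 was the highest of the 4 arrays in 14 and wild type the lowest in 14. The part of the single wild type array in these differences was not tested.

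Counts with the drug differed between the groups, each from few genes. Of the berberine bridge enzyme-like genes, 3 of 10 measured with the drug were at least 2-fold higher in ku80, against 1.98% of all measured probe sets. They were AT1G30700 at 312 in ku80 and 87.1 in wild type, AT1G26390 at 209 in ku80 and 71.5 in wild type, and AT1G26380 at 266 in ku80 and 126 in wild type. All 9 major latex protein-like genes measured with the drug had ratios below 0, where 52% of all probe sets did, and AT1G23130 was at 156 in ku80 against 423 in wild type. Hypoxia genes had 1 of 19 2-fold higher and 3 2-fold lower with the drug, with a median of -0.30. Chitinases had 1 of 8 higher and 2 lower, where 1.98% of all measured probe sets were higher and 2.51% lower. JRG21 kept a large difference with the drug, at 243 in ku80 and under the floor in wild type, as did ORA47, at 36.1 in ku80 and 410 in wild type.

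**Figure D5:**
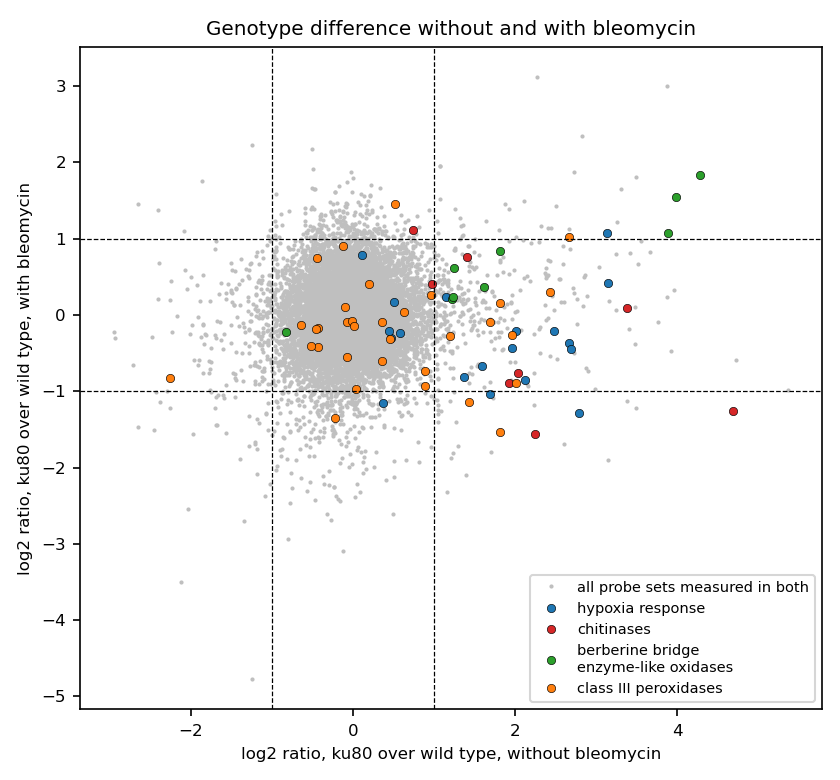
Each point is a probe set measured in both pairs of arrays: the x axis gives the log2 ratio of ku80 over wild type without bleomycin and the y axis the same with bleomycin, and dashed lines mark 2-fold. Berberine bridge enzyme-like genes such as AT1G26390 (3.98 and 1.55) lie to the upper right, while the chitinase gene AT2G43620 (4.69 and -1.26) lies to the lower right.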

How the data were processed

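The deposited table held linear intensities, 1 per probe set and array. The mean of each array after trimming 2% at each end was 100.01, so the deposited values were already on a common mean. The software, its version and its background correction are not given in the sources used here. Arrays were rescaled so that the brighter 50% of probe sets had a median ratio of 1 to their geometric mean across arrays (factors 1.00 for ku80 and 1.02 for wild type). Then values below 28 were set to 28 and log2 was taken. The 64 control probe sets were left out. Names came from the platform table with symbols from RefSeq (assembly TAIR10.1): 13513 probe sets had 1 gene, 13436 of them matched in RefSeq, 503 had several and 8730 were unnamed here. Scripts ran in Python 3.11.15 with pandas 2.3.3 and were tested on simulated data.

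Named genes were the 25 highest and 25 lowest ratios of at least 2-fold above the floor on both arrays, the 15 highest and 15 lowest bounds, listed genes, adjacent genes and genes near KU80. Not all are printed. Members and lists were chosen with earlier results of these data known, and the lists of chitinases, berberine bridge enzyme-like, CAP, peroxidase, root hair and major latex protein-like genes after the values were seen, as was the count of arrays beyond the other 3. The symbols PDF1A and PDF1B, peptide deformylases, were left out of the defensin list. Alternatives covered the scaling, the floor, the filter and the fold threshold. The number of arrays limits the precision: 1 per group leaves no estimate of error.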

Additional observations from a re-analysis of the deposited data

Results flagged for a closer look

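At 15 of the 135 named genes past 2-fold without bleomycin, the difference between ku80 and wild type was at least 2-fold the other way with it. With 1 array in each group these differences were not tested. Of all probe sets 2-fold higher without the drug, 27 of the 380 measured with it (7.11%) were 2-fold lower there. Of those 2-fold lower without the drug, 8 of 263 (3.04%) were 2-fold higher with it. The 135 genes were chosen by being past 2-fold without the drug, and the same ratio enters each change, so the changes are a description. The change in log2 ratio, with minus without the drug, was -5.95 at the chitinase gene AT2G43620, -4.51 at PDF1.2 and -4.07 at the hypoxia gene AT1G19530. The peroxidase genes AT5G64100 and AT5G19890 had -3.35 and -2.58, and the neighbouring genes AT5G52750 and AT5G52760 had -2.35 and -2.66. AT4G39670 had -3.50 and AT3G09020 -2.26. It was 3.18 at AT4G22610, which was lower in ku80 without the drug and higher with it. At AT4G39675, AT1G26250, AT2G43590, GAT1_2.1 and the hypoxia gene AT5G66985 it was -5.04, -4.72, -3.80, -3.42 and -2.72, each with 1 array at the floor.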

How the results depend on the processing

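The counts of 388 higher and 320 lower probe sets moved by less than 1.5 times on the deposited scale, with quantile normalization, with factors from the 2 untreated arrays and when bounds were left out. They moved further in these settings: a floor of 56 gave 192 lower, a floor of 14 gave 486 lower and without a floor 168 were lower. The 1.5-fold threshold gave 1095 higher and 1301 lower, and the 3-fold threshold 173 higher and 85 lower. The spike-in scaling, chosen after seeing the data, gave 124 higher and 4614 lower. Of the 135 named genes past 2-fold, none changed direction with another scaling, another floor or no floor, and the 90 without bounds were unaffected when bounds were left out. All 135 stayed past 2-fold on the deposited scale, with the 2-array factors and with a floor of 14. Below 2-fold were 3 with quantile normalization, 30 with a floor of 56, 17 without a floor and 33 with the spike-in scaling. All 3 and all 33 were genes higher in ku80. The 30 were 14 higher and 16 lower in ku80, and the 17 were 9 higher and 8 lower. Medians of 52 gene lists moved by over 0.25 in 16 without a floor and in 49 with the spike-in scaling, and in 13 of 46 with a floor of 56. Fewer probe sets are tested with a higher floor, and other causes were not tested. No paired analysis was possible because each group holds 1 array. Probe sets near the floor of 28, where ratios are bounds, limit what can be said of dim genes.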
